A study of Homo sapiens with 2 samples.

Results

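The 58 genes described here drive and time mitosis, the phase in which a cell separates its copied chromosomes and divides. They comprise CDK1 and its cyclins, the Polo and Aurora kinases, the spindle checkpoint, the anaphase-promoting complex (APC/C), and spindle and cytokinesis factors. They were chosen by name, as the rows whose Entrez gene number maps to the listed NCBI symbols, and all 58 had a row among the 16021 rows of the table. RNA sequencing was done on HGC-27, a human gastric adenocarcinoma line, carrying, by lentivirus, either a DDX5 shRNA (1 library) or a non-targeting shRNA (1 library). All cells received puromycin 48 h after transduction and were harvested 1 week later, per the labels, which give no clone or separate cultures. With 1 library per condition, all values below compare these libraries, and the spread between cultures was not measured, so no test was possible. Levels are FPKM, fragment counts divided by both the length of the transcript and the depth of the library, so genes of different length can be compared.

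CDK1 with a B-type cyclin is the engine of mitotic entry: WEE1 and PKMYT1 hold it inactive by phosphorylation, and CDC25 phosphatases release it. The spindle checkpoint then keeps CDC20 from switching on the APC/C, a ubiquitin ligase, until all chromosomes are attached. Once it is active, the APC/C marks securin (PTTG1) and cyclin B for destruction, which frees separase (ESPL1) and lets the cell leave mitosis. Most of these genes are known to be transcribed mainly in G2 and M phase of dividing cells, under the MuvB, B-MYB and FOXM1 transcription factors, whereas subunits of the APC/C itself are present through the cycle.

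DDX5, the targeted RNA helicase gene, stood at 50.78 FPKM in the DDX5 shRNA library and at 170.5 FPKM in the non-targeting library, 29.8% of the control level. Summed FPKM over all rows was 594757 in the DDX5 shRNA library and 549129 in the non-targeting library. Of the mesenchymal markers, VIM stood at 1271 FPKM in the DDX5 shRNA library and 1584 FPKM in the non-targeting library. FN1 was low, at 5.99 and 4.76 FPKM in the same order, and CDH2 was nearly absent, at 0 and 0.07 FPKM. The epithelial markers of the labelled carcinoma type were nearly absent: EPCAM stood at 0.39 and 0.04 FPKM, KRT18 at 0.16 and 0.1 FPKM and CDH1 at 0.07 and 0.36 FPKM, while KRT8 stood at 1.31 and 5.24 FPKM (DDX5 shRNA and non-targeting library in each case). KRT19 was not analysed here. Of the endothelial markers, VWF stood at 0.05 and 0.01 FPKM, and PECAM1 and CDH5 were not analysed here.

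The mitotic genes were lower in the DDX5 shRNA library almost throughout. On the log2 ratio of FPKM + 1, DDX5 shRNA over non-targeting shRNA, 55 of 58 members lay below 0, against 47.8% of the 11413 genes whose mean reached 1 FPKM. At least 2-fold lower on that scale were 25 of 58 members (43.1%), against 2.26% of all genes, and 0 members were at least 2-fold higher, against 4.19% of all genes. The median ratio of the members was -0.92, beside 0.02 over all genes. After scaling to equal summed FPKM, the all-gene counts of 258 lower and 478 higher became 379 and 379, the all-gene median became -0.08 and the members' median -1.03, with 33 members at least 2-fold lower. Every member had a mean of at least 5 FPKM, so none was lost to the filter.

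Summed over the 58 genes, the level was 2092 FPKM in the DDX5 shRNA library and 3620 FPKM in the non-targeting library, 57.8% of the control. These sums were 0.352% and 0.659% of all FPKM in the DDX5 shRNA and the non-targeting library. In RNA from whole cultures, fewer cells in G2 and mitosis and less of these RNAs per cell cannot be told apart. The difference was uneven, since the ratios of members ranged from -1.96 for MKI67 to 0.31 for CDC16, and the order of levels was partly reshuffled (Spearman correlation of both libraries 0.905 over the 58 members and 0.945 over all genes, with no replicate behind either). On deposited FPKM, 27 members were at least 2-fold lower, 6 of them at least 3-fold and 2 at least 4-fold. The members with the lowest ratios stood among the lowest of all genes: 11 of the 58 lay at or below the 1st percentile of all ratios and 35 at or below the 5th.

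**Figure D1:**
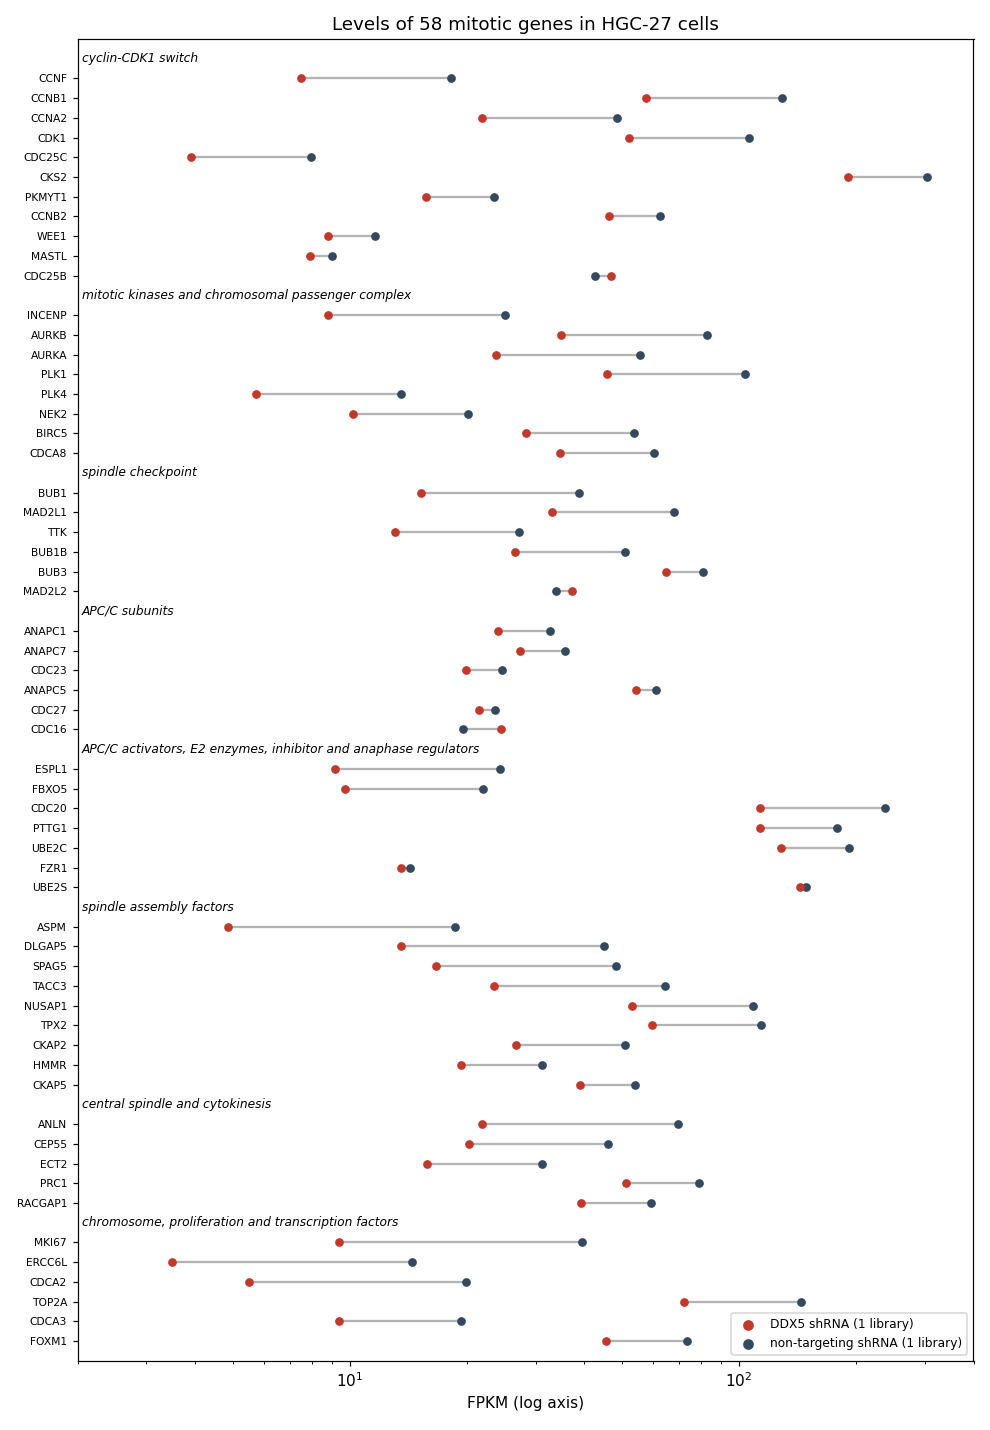
FPKM of each of the 58 genes (log axis) in the DDX5 shRNA library (red) and the non-targeting library (dark blue), grouped by role and ordered by ratio within a role, with a line joining both values of a gene and 1 library per condition. The red point lies left of the dark one for 55 genes, and to its right for CDC25B, MAD2L2 and CDC16.

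The chromosome and proliferation factors held the lowest ratios, with a group median of -1.33 over 6 genes, 3 of them at least 2-fold lower. MKI67, which encodes the Ki-67 protein that coats mitotic chromosomes and serves as the standard proliferation marker, stood at 9.38 FPKM in the DDX5 shRNA library and at 39.39 FPKM in the non-targeting library, 4.20-fold lower and rank 11 from the lowest ratio among 11413 genes. ERCC6L, a DNA translocase on the ultrafine bridges between separating chromatids, stood at 3.5 and 14.41 FPKM, 4.12-fold lower. CDCA2, which brings protein phosphatase 1 to anaphase chromosomes, stood at 5.51 and 19.82 FPKM, 3.60-fold lower. All 3 were scarcer than TOP2A in both libraries. TOP2A, the topoisomerase that disentangles chromatids, stood at 72.04 FPKM in the DDX5 shRNA library and 144.07 FPKM in the non-targeting library, and its ratio of -0.99 lay just inside 2-fold. CDCA3, an adaptor for WEE1 turnover, stood at 9.35 and 19.29 FPKM, and FOXM1, a transcription factor of G2 and M phase genes, at 45.48 and 73.55 FPKM. FOXM1 had the ratio nearest 0 of this group, at -0.68.

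The promoters of the lowest members are shown because mitotic genes are known for shared short promoter elements, the CHR bound by MuvB and the CCAAT box bound by NF-Y, whereas E2F sites are typical of G1/S genes. Windows of 300 bases, from 250 before to 50 after the annotated start, were taken from RefSeq (GRCh38.p14) and searched on both strands for the CHR letters TTTGAA or TTCGAA, for CCAAT, and for the E2F letters TTTGGCGC or TTTCGCGC or TTTCCCGC or TTTGCCGC. Matches of different motifs could overlap. The first 3 below belong to the 3 members of lowest ratio that have a CHR match. The last 2 belong to the APC/C subunits of highest ratio among the members that have a window. Capitals mark every match, read 5′ to 3′ on the gene's strand. The windows lie at chr10:128126374-128126673 (minus strand) for MKI67, chrX:72238978-72239277 (minus) for ERCC6L, chr1:197146620-197146919 (minus) for ASPM, chr13:114234647-114234946 (plus) for CDC16 and chr17:47189246-47189545 (minus) for CDC27.
MKI67: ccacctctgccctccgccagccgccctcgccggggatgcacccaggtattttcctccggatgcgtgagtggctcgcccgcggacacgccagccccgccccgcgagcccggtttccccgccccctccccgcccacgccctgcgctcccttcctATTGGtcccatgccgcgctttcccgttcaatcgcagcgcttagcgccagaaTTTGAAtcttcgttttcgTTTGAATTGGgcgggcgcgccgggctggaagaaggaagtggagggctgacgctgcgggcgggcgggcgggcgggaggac
ERCC6L: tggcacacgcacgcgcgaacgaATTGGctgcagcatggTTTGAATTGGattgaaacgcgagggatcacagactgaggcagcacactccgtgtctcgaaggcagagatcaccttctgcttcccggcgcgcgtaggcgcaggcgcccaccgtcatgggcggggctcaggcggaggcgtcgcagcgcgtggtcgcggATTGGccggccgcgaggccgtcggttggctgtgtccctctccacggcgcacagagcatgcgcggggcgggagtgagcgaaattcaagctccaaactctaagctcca
ASPM: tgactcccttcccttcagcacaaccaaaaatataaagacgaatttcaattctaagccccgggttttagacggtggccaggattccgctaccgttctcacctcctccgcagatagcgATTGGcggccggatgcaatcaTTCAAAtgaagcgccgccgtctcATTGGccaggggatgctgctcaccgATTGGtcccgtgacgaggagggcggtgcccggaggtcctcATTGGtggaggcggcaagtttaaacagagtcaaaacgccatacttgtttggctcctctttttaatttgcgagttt
CDC16: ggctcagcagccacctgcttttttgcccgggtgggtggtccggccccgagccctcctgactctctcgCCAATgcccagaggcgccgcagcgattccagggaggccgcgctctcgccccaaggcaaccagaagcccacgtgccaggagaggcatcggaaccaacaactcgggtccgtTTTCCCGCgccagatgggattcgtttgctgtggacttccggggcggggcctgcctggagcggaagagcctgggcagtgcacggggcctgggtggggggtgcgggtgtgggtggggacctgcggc
CDC27: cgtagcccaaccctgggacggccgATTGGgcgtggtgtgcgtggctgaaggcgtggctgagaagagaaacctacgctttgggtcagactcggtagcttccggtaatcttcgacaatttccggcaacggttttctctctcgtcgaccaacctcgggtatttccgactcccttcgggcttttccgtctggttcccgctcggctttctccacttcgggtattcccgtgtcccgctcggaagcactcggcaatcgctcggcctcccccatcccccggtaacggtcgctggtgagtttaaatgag

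In the MKI67 window the CHR letters begin at positions -47 and -29 from the start and those of CCAAT at -98 and -24, where the second CHR and CCAAT match share letters. The ASPM window has 4 CCAAT matches, at -134, -90, -65 and -25, and a CHR at -113, while the ERCC6L window has its CHR farther out, at -212. Neither APC/C window has a CHR, and that of CDC16 has an E2F match at -74. A match is a description of letters and was not tested as a binding site.

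A window was at hand for 47 of the 58 members. CHR letters occurred in 31 of them (66.0%), against 11.0% of the windows of 9279 genes past the filter and 16.6% of all 27305 windows in the table. Within 50 bases of the start, 23 of 47 members (48.9%) had a CHR, against 3.11% of genes past the filter and 5.05% of all windows. CCAAT occurred in 70.2% of members, against 37.4% of genes past the filter and 35.7% of all windows, while the E2F letters occurred in 8.51%, against 5.65% and 3.33%. In a list of 23 G1/S and replication genes with a window, 69.6% had E2F letters and 8.70% a CHR, whereas CCAAT was about as common as in members, at 73.9%. Among members, the median log2 ratio was -1.01 for the 31 with a CHR and -0.76 for the 16 without, and 17 and 5 of them were at least 2-fold lower. Of the 6 APC/C subunits, 4 have no CHR letters in the window. Without these 6 genes, the medians were -1.02 over 29 genes with a CHR and -0.91 over 12 without. Of these, 17 and 5 (58.6% and 41.7%) were at least 2-fold lower. For a CHR within 50 bases of the start, again without the APC/C subunits, the medians were nearly equal, -1.02 over 22 genes and -1.01 over 19, with 12 and 10 at least 2-fold lower. In the 34 other mitotic genes with a window the order was the opposite: the median was -0.79 for the 26 with a CHR and -0.90 for the 8 without, and 7 and 3 of them (26.9% and 37.5%) were at least 2-fold lower. The order by CHR letters thus differed between these lists and was not tested. With CCAAT, 51.5% of members were at least 2-fold lower, against 35.7% without. In the other mitotic genes the counts were 9 of 22 (40.9%) and 1 of 12 (8.33%). In the G1/S and replication genes they were 7 of 17 (41.2%) and 1 of 6 (16.7%). For at least 2 CCAAT, the order in the G1/S and replication genes was the opposite, 27.3% and 41.7%. Genes without CHR letters in the window, such as AURKB, CCNB1 and TACC3, were also at least 2-fold lower. Each window was searched for exact letters only. A gene without a match may still have such an element in other letters or outside the window.

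**Figure D2:**
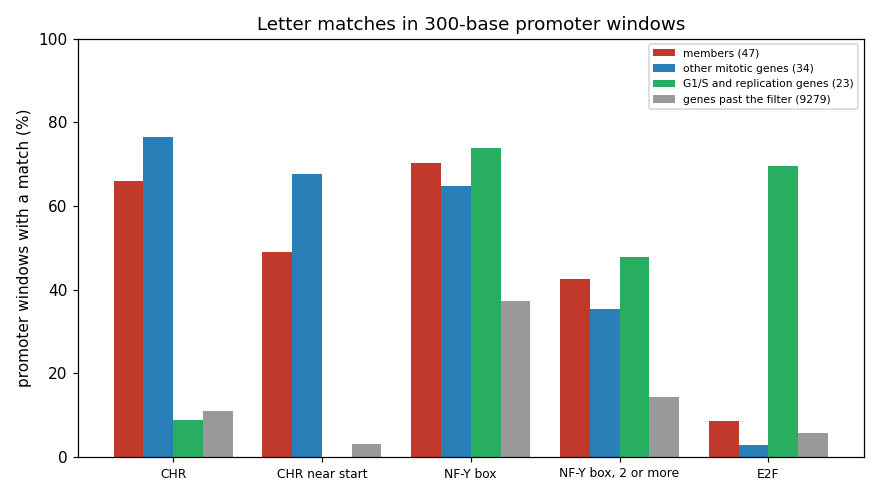
Percentage of 300-base RefSeq promoter windows with a letter match, for the members (red, 47 windows), other mitotic genes (blue, 34), G1/S and replication genes (green, 23) and all genes past the filter (grey, 9279); the NF-Y box is CCAAT, and near start is within 50 bases. The CHR stands at 66.0% in members, 76.5% in other mitotic genes and 8.70% in G1/S and replication genes, and the E2F letters at 8.51%, 2.94% and 69.6%.

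In the cyclin and CDK1 switch, 4 of 11 genes were at least 2-fold lower and the median ratio was -0.67. CDK1, the kinase at its centre, stood at 52.07 FPKM in the DDX5 shRNA library and at 106.12 FPKM in the non-targeting library, 2.04-fold lower. CCNB1, its main mitotic cyclin, stood at 57.5 and 128.63 FPKM, 2.24-fold lower, and CCNA2, the S and G2 phase cyclin, at 21.8 and 48.5 FPKM, 2.22-fold lower. CCNF, an F-box protein with a cyclin fold that directs ubiquitination, stood at 7.48 and 18.15 FPKM and had the lowest ratio of the group, -1.18. CCNB2, the second B-type cyclin, differed less from the control: it stood at 46.21 FPKM in the DDX5 shRNA library and 62.45 FPKM in the non-targeting library, 1.35-fold lower. CCNB2 per CCNB1 transcript was 0.804 in the DDX5 shRNA library and 0.486 in the non-targeting library, while CCNB1 per CDK1 was nearly alike, at 1.10 and 1.21.

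The enzymes that set CDK1 phosphorylation were lower except CDC25B, which lay near the control. CDC25C, a CDK1-activating phosphatase, stood at 3.9 and 7.93 FPKM, 2.03-fold lower on deposited FPKM but with a ratio of -0.87 on FPKM + 1, and was the member with the lowest level in the non-targeting library. CDC25B, which starts CDK1 activation in G2, stood at 46.88 FPKM in the DDX5 shRNA library and 42.73 FPKM in the non-targeting library, 1.10-fold higher. Its ratio of 0.13 became 0.02 after scaling to equal summed FPKM. The opposing kinase genes WEE1 (8.79 and 11.59 FPKM) and PKMYT1 (15.67 and 23.47 FPKM) had ratios of -0.36 and -0.55. CDC25B per WEE1 was 5.33 in the DDX5 shRNA library and 3.69 in the non-targeting library, whereas CDC25C per PKMYT1 was 0.249 and 0.338. CKS2, a small CDK-binding subunit and the most abundant member in both libraries, stood at 190.06 and 303.33 FPKM with a ratio of -0.67, at the group median. MASTL, the Greatwall kinase that restrains PP2A during mitosis, stood at 7.89 and 9 FPKM, a ratio of -0.17.

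Among the mitotic kinases and the chromosomal passenger complex, all 8 genes were lower, 5 of them at least 2-fold, with a median of -1.13. INCENP, the scaffold of the passenger complex, stood at 8.81 FPKM in the DDX5 shRNA library and 25.04 FPKM in the non-targeting library, 2.84-fold lower, and AURKB, the kinase of that complex, at 34.92 and 82.53 FPKM, 2.36-fold lower. The other complex members were closer to the control: BIRC5 (survivin) stood at 28.4 and 53.81 FPKM and CDCA8 (borealin) at 34.59 and 60.47 FPKM, ratios of -0.90 and -0.79. AURKA, the spindle pole Aurora kinase, stood at 23.8 and 55.79 FPKM, 2.34-fold lower, and its activator TPX2 at 59.86 and 113.83 FPKM, 1.90-fold lower. PLK1, which acts from mitotic entry to cytokinesis, stood at 45.79 and 103.32 FPKM, 2.26-fold lower. PLK4, which controls centriole duplication, stood at 5.74 and 13.53 FPKM, 2.36-fold lower. PLK1 and PLK4 thus had nearly equal ratios, -1.16 and -1.11, at levels far apart. NEK2, a kinase of centrosome separation, stood at 10.2 and 20.16 FPKM, a ratio of -0.92.

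The spindle checkpoint genes differed among themselves, with a median of -0.96 and 3 of 6 genes past 2-fold. BUB1, a kinetochore kinase of the checkpoint, stood at 15.22 FPKM in the DDX5 shRNA library and 38.89 FPKM in the non-targeting library, 2.56-fold lower. TTK, the kinase (MPS1) that starts checkpoint signalling, stood at 13.06 and 27.19 FPKM, 2.08-fold lower, and MAD2L1, the CDC20-binding inhibitor, at 33.1 and 68.18 FPKM, 2.06-fold lower. Of all members past 2-fold, TTK lay closest to that limit. BUB1B, a further subunit of the inhibitor complex, stood at 26.58 and 50.93 FPKM, a ratio of -0.91. BUB3, a scaffold that carries BUB1 and BUB1B, stood at 64.93 and 80.96 FPKM, a ratio of -0.31. MAD2L2, a relative of MAD2L1 that also works in translesion DNA synthesis, stood at 37.2 and 33.92 FPKM, 1.10-fold higher. MAD2L1 per MAD2L2 was 0.890 in the DDX5 shRNA library and 2.01 in the non-targeting library, and BUB1 per BUB3 was 0.234 in the DDX5 shRNA library and 0.480 in the non-targeting library.

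Subunits of the APC/C lay closest to the control. Of the 6 members, 5 lay below 0, 0 were at least 2-fold lower, and the median was -0.24. Over all genes, 47.8% lay below 0 and 2.26% were at least 2-fold lower, so 0 of 6 is near that share. ANAPC1, the largest scaffold subunit, had the lowest ratio (24.05 FPKM in the DDX5 shRNA library and 32.64 FPKM in the non-targeting library, -0.43), followed by ANAPC7 (27.43 and 35.8 FPKM, -0.37) and CDC23 (19.82 and 24.64 FPKM, -0.30). ANAPC5 stood at 54.26 and 61.2 FPKM and CDC27 at 21.44 and 23.63 FPKM. CDC16, like CDC23, CDC27 and ANAPC7 a subunit with tetratricopeptide repeats, was the member with the highest ratio of all, at 24.49 FPKM in the DDX5 shRNA library and 19.52 FPKM in the non-targeting library, 1.25-fold higher. The 8 APC/C subunits that are not members had ratios from -0.74 to 1.17, with a median of -0.08. Of these, 0 were at least 2-fold lower (2.26% of all genes) and 1 at least 2-fold higher (4.19% of all genes). That was ANAPC16 (38.75 and 16.66 FPKM), while ANAPC15 (21.12 and 35.87 FPKM) and ANAPC4 (6.65 and 11.72 FPKM) had ratios of -0.74 and -0.73, and CDC26 lay near the median at 49.25 and 52.97 FPKM. Over all 14 subunits the median was -0.15, and over the 52 members that are not APC/C subunits it was -0.98 with 25 at least 2-fold lower; the difference was not tested, as there is 1 library per condition.

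The APC/C's activators, E2 enzymes, inhibitor and anaphase regulators ranged widely, with a median of -0.65 and 3 of 7 genes at least 2-fold lower. CDC20, the mitotic activator and checkpoint target, stood at 112.89 FPKM in the DDX5 shRNA library and 237.47 FPKM in the non-targeting library, 2.10-fold lower. FZR1 (CDH1), which takes over as activator from late mitosis into G1, stood at 13.55 and 14.24 FPKM, a ratio of -0.07. CDC20 per FZR1 was 8.33 in the DDX5 shRNA library and 16.7 in the non-targeting library. FBXO5 (EMI1), the inhibitor of the APC/C before mitosis, stood at 9.74 and 22.04 FPKM, 2.26-fold lower, so that FBXO5 per FZR1 was 0.719 and 1.55. The E2 enzymes that work with the APC/C also parted: UBE2C, which starts ubiquitin chains, stood at 127.86 and 191.27 FPKM, a ratio of -0.58, and UBE2S, which extends them, at 142.91 and 148.28 FPKM, a ratio of -0.05. The signs for FZR1 and UBE2S turned positive, 0.03 and 0.02, once ratios were corrected for transcript length and GC content. ESPL1, separase, stood at 9.15 and 24.25 FPKM, 2.65-fold lower, and PTTG1, securin, at 113.16 and 178.72 FPKM, 1.58-fold lower. Securin transcripts per separase transcript were 12.4 in the DDX5 shRNA library and 7.37 in the non-targeting library.

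**Figure D3:**
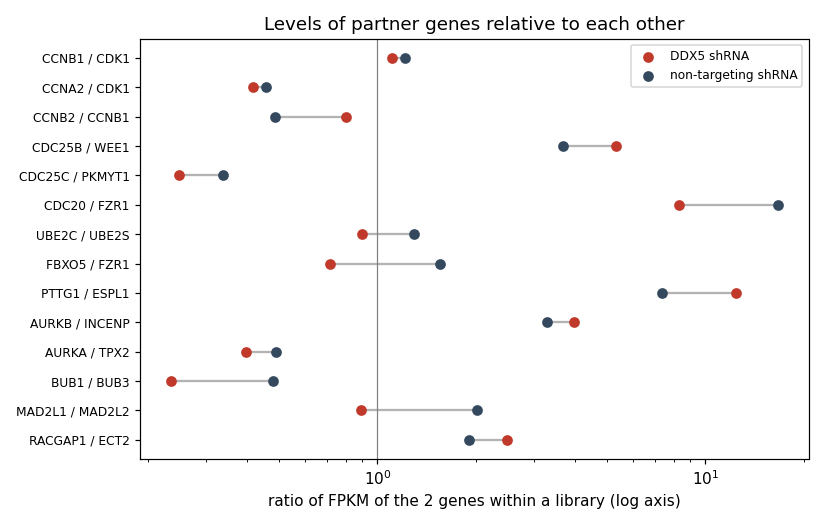
Ratio of the FPKM of gene pairs within a library (log axis) for the DDX5 shRNA library (red) and the non-targeting library (dark blue), for 14 pairs chosen with their values known. CCNB1 per CDK1 and CCNA2 per CDK1 lie close together in both libraries, whereas CDC20 per FZR1, FBXO5 per FZR1, BUB1 per BUB3 and MAD2L1 per MAD2L2 lie lower in the DDX5 shRNA library and CCNB2 per CCNB1 and PTTG1 per ESPL1 lie higher.

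All 9 spindle assembly factors were lower, 5 of them at least 2-fold, with a median of -1.01. ASPM, which focuses spindle poles, stood at 4.85 FPKM in the DDX5 shRNA library and 18.59 FPKM in the non-targeting library, 3.83-fold lower. DLGAP5 (HURP), which stabilises kinetochore microtubules, stood at 13.56 and 44.88 FPKM, 3.31-fold lower, and SPAG5 (astrin), a kinetochore and spindle protein, at 16.65 and 48.2 FPKM, 2.89-fold lower. TACC3, part of the clathrin and CKAP5 bridge between microtubules, stood at 23.49 and 64.32 FPKM, 2.74-fold lower. Its partner CKAP5, a microtubule polymerase that also acts outside mitosis, was the member of this group nearest the control, at 39.07 and 53.98 FPKM, 1.38-fold lower. NUSAP1, a microtubule bundler, lay at the group median with 53.18 and 108.38 FPKM. CKAP2, a microtubule-stabilising protein, stood at 26.73 and 51 FPKM, and HMMR, a hyaluronan receptor that also binds spindle poles, at 19.28 and 31.23 FPKM, ratios of -0.91 and -0.67.

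Central spindle and cytokinesis genes were likewise all lower, with a median of -0.94 over 5 genes and 2 of them at least 2-fold lower. ANLN (anillin), which links the contractile ring to the membrane, stood at 21.86 FPKM in the DDX5 shRNA library and 69.5 FPKM in the non-targeting library, 3.18-fold lower. CEP55, which brings the abscission machinery to the midbody, stood at 20.22 and 45.92 FPKM, 2.27-fold lower. ECT2, the exchange factor that activates RhoA at the division plane, lay at the group median with 15.78 and 31.22 FPKM. RACGAP1, its centralspindlin partner, stood at 39.19 and 59.36 FPKM, a ratio of -0.59, and PRC1, the bundler of antiparallel central spindle microtubules, at 51.33 and 78.88 FPKM, a ratio of -0.61. RACGAP1 per ECT2 was 2.48 in the DDX5 shRNA library and 1.90 in the non-targeting library.

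**Figure D4:**
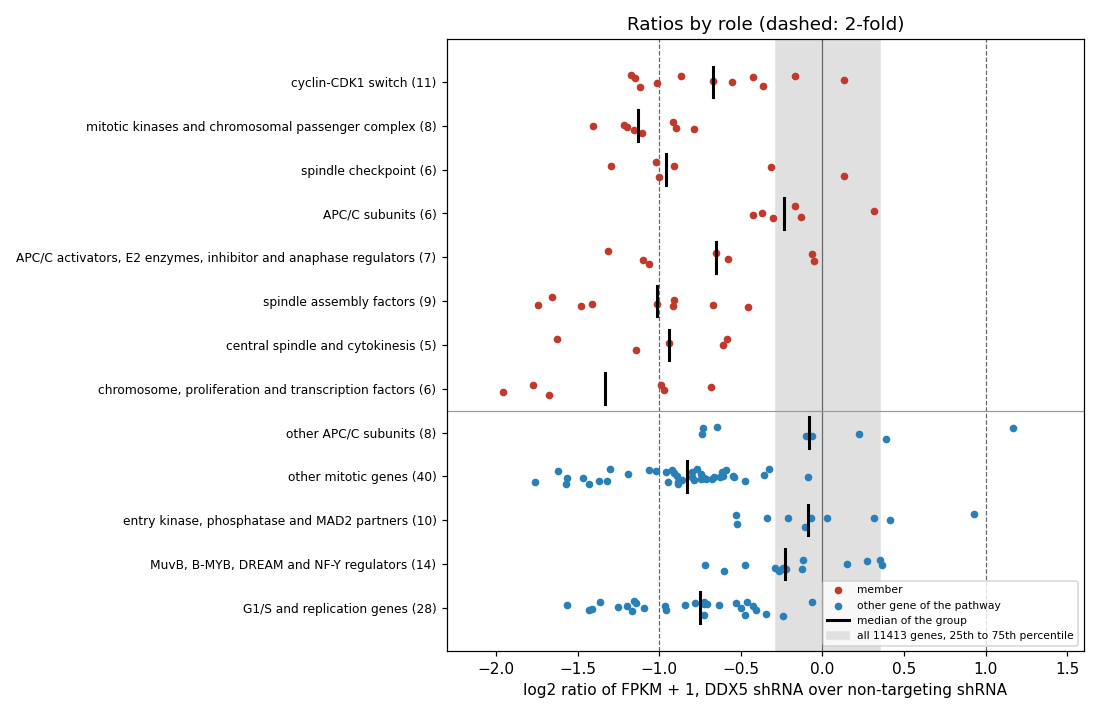
Log2 ratio of FPKM + 1, DDX5 shRNA over non-targeting shRNA, of each member (red) by role and of other genes of the pathway (blue), with black bars at group medians, dashed lines at 2-fold and the 25th to 75th percentile of all 11413 genes shaded. Group medians of members run from -1.33 (chromosome, proliferation and transcription factors) to -0.24 (APC/C subunits).

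Genes of the pathway outside the 58 were then read from lists, which were chosen with earlier results of these data known. All 40 other mitotic genes lay below 0, with 12 at least 2-fold lower, 0 at least 2-fold higher and a median of -0.83. The kinesin genes KIF20A (14.65 FPKM in the DDX5 shRNA library and 52.07 FPKM in the non-targeting library) and KIF20B (5.52 and 19.02 FPKM) and the spindle gene FAM83D (12.15 and 38.18 FPKM) had the lowest ratios, from -1.76 to -1.58, and HJURP, the chaperone that deposits CENPA, lay near the median at 21.8 and 38.74 FPKM. In the list of G1/S and replication genes, all 28 were below 0 and 10 at least 2-fold lower, with a median of -0.75. FEN1, MCM10 and MCM4, which act at the replication fork, led it with ratios of -1.56, -1.43 and -1.42, and GINS4 (5.82 and 10.7 FPKM) lay near the median. Levels below the control were thus found among S phase genes as well as mitotic genes.

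Non-member regulators of mitotic entry and of mitotic transcription stood nearer 0. For comparison, 47.8% of all genes lay below 0, 2.26% were at least 2-fold lower and 4.19% at least 2-fold higher. A list of 10 genes held 8 partners of the entry kinases and phosphatases and 2 MAD2 partners of the spindle checkpoint, MAD1L1 and MAD2L1BP. Of these 10, 6 lay below 0 and 0 were 2-fold apart, with a median of -0.09. CCNH, the cyclin of the CDK-activating kinase, had the largest difference at 79.88 FPKM in the DDX5 shRNA library and 41.54 FPKM in the non-targeting library, a ratio of 0.93, while its kinase CDK7 stood at 24.86 and 26.88 FPKM. MAD1L1, which recruits MAD2 to kinetochores, and PPP2R1A, a PP2A scaffold, had ratios of -0.53 and -0.52. The 14 genes of MuvB, B-MYB, DREAM and NF-Y had a median of -0.23, with 10 below 0 and 0 at least 2-fold lower. TFDP1 (40.66 and 67.7 FPKM), RBL1 (5.4 and 8.74 FPKM) and MYBL2, which encodes B-MYB (74.72 and 104.42 FPKM), led with ratios of -0.72, -0.61 and -0.48, and the MuvB subunit gene LIN9 lay near the median at 8.41 and 9.97 FPKM.

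**Figure D5:**
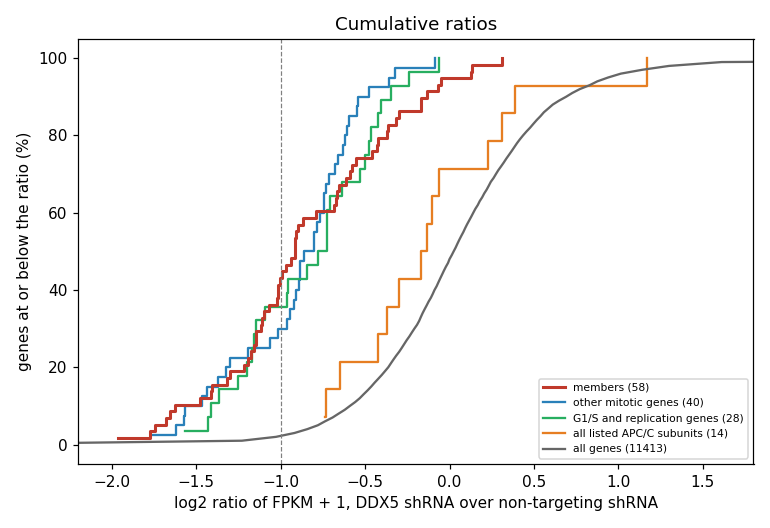
Cumulative percentage of genes (vertical axis) at or below each log2 ratio of FPKM + 1, DDX5 shRNA over non-targeting shRNA (horizontal axis), for the 58 members (red), 40 other mitotic genes (blue), 28 G1/S and replication genes (green), 14 APC/C subunits (orange) and all 11413 genes (grey). The medians are -0.92, -0.83, -0.75, -0.15 and 0.02.

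Depth, transcript length and shared sequence bear on single values. At an estimated 1.43e+07 fragments in the DDX5 shRNA library and 1.50e+07 in the non-targeting library, the member with the fewest fragments, CDC25C, came to about 118 and 253. Members at or above their median transcript length of 3192 bases had a median ratio of -0.94 and those below it -0.90, with 13 and 12 of 29 each at least 2-fold lower. The other mitotic genes were less even at the same limit: 8 of 17 long genes (47.1%) and 4 of 23 short genes (17.4%) were at least 2-fold lower, with medians of -0.89 and -0.77. The part of transcript length in that list's count of 12 was not tested. Of the 50-base windows of NUSAP1, PRC1 and ANAPC1, 68.6%, 64.1% and 49.0% also occur in a transcript of another gene annotated in GENCODE v29. The annotation behind the deposited FPKM was not given. If it held those other genes, the values of NUSAP1, PRC1 and ANAPC1 depend on how reads were divided. Exons on the opposite strand cover 22.4% of FOXM1, 20.8% of PKMYT1 and 19.9% of CDCA3, and with no strand setting stated, reads from both strands there cannot be told apart.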

How the data were processed

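RNA was extracted with Trizol and sequenced on libraries made by Illumina protocols, 1 per condition. FPKM stand in the table as deposited, a column per library, per the file headers. RSEM 1.2.8, Bowtie2, HISAT and the build hg19 are listed in the submitters' processing notes, with no roles. An annotation and a strand setting were not given in the sources used here. Columns were matched to conditions by sample title, and Entrez numbers to symbols by RefSeq (15289 of 16021 rows).

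From these, log2 ratios were taken after adding 1 to each FPKM, DDX5 shRNA over non-targeting shRNA, a scale that understates differences of low genes. "At least 2-fold" means at or beyond 1 or -1 on this scale unless deposited FPKM is named. Counts and medians used genes whose mean reached 1 FPKM. No test was run, since each condition has 1 library. Members and lists were chosen with earlier results of these data known, and so were the 14 partner pairs. Every member was named, and of each pathway list the 3 genes with the largest absolute ratio at a mean of 5 FPKM or more and the gene nearest the median.

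Transcript length, GC content, shared 50-base windows (taken every 10 bases) and opposite-strand exons came from GENCODE v29 (GRCh38), using the longest protein-coding transcript. Depth was estimated from whole-fragment steps in low FPKM of short genes with 1 transcript: 69.2% of 117 genes (DDX5 shRNA) and 71.3% of 122 genes (non-targeting) fell within 0.15 of a whole step at the best-fitting depth, which was chosen on these same genes, so depth is approximate. A planned search for degron motifs in proteins was not run. The procedure was tested on simulated data, in which large known changes were put into some genes with a small random spread. The simulation held no spread between cultures and no changes set near 2-fold. Ratios were computed with pandas 2.3.3 and scipy 1.17.1 under Python 3.11.15, with numpy 2.4.6, and drawn with matplotlib 3.10.9.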

Additional observations from a re-analysis of the deposited data

How the results depend on the processing

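The pseudocount was set to 0.1 or 5, the filter removed or raised to 5 FPKM, libraries scaled to the same total, ratios centred by their median or their 30% trimmed mean and, added after the data were seen, a correction for transcript length and GC content. No paired analysis was possible because each condition has 1 library. Across these 8 alternatives the number of members at least 2-fold lower ranged from 17 to 33, and 0 were at least 2-fold higher in each. The same 17 genes were at least 2-fold lower in the main analysis and all 8: ANLN, ASPM, AURKA, AURKB, BUB1, CCNB1, CDC20, CDCA2, CEP55, DLGAP5, ERCC6L, ESPL1, INCENP, MKI67, PLK1, SPAG5 and TACC3. These are the 17 left by the pseudocount of 5 alone, so that setting fixed the set. Neither filter setting could change a member's ratio, as every member had a mean of at least 5 FPKM. A pseudocount of 5, which draws ratios towards 0 by construction, gave medians of -0.81 for the members, -1.07 for the chromosome, proliferation and transcription factors and -0.69 for the other mitotic genes, of which 6 were then at least 2-fold lower. The same total, which lowers every ratio by construction, gave -1.03 for the members and -0.94 for the other mitotic genes. The other 107 medians of roles and lists moved by less than their spread, scaled from the robust SD of all ratios to the list size, and kept their sign. Of the 58 members, 2 changed sign (FZR1 and UBE2S). Depth was only estimated, and no alternative replaces a second culture.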

Other observations

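Among genes past the filter that belong to none of the lists, 242 had CHR letters within 50 bases of the start, and 10 of them (4.13%) had a ratio of -1 or lower, against 148 of the 8901 genes with no such match (1.66%). Their median log2 ratios were -0.12 and 0.03. For a CHR anywhere in the window the shares were closer, 23 of 959 (2.40%) and 135 of 8184 (1.65%). With a CHR and at least 2 CCAAT matches anywhere in the window, 8 of 140 genes (5.71%) had such a ratio, against 150 of 9003 (1.67%). E2F letters went with a smaller gap, 11 of 500 (2.20%) against 147 of 8643 (1.70%). The lists do not hold every cell cycle gene, so others can remain among the genes counted here. These groupings were made with the data known and were not tested.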
